A study of Homo sapiens with 4 samples.

Results

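The 34 genes described here encode the cyclins, kinases, kinetochore proteins, spindle motors and ubiquitylation factors of the G2 phase and mitosis. They were taken by symbol from a list of G2/M and mitosis genes. Each was represented by the probe set, assigned to that symbol alone, with the highest mean over all arrays. All 34 were measured and passed the filter on dim probe sets, among 16252 genes tested. The cells were MKN45, an established line of gastric epithelium grown from a human adenocarcinoma. In the treated group, medium with 10 µg/ml Helicobacter pylori lipopolysaccharide (LPS), the lipid-anchored sugar chain that coats this bacterium, was given for 8 h, and untreated cells had fresh medium for the same time. There were 2 LPS arrays and 2 untreated arrays, and the series text speaks of 2 independent experiments without tying them to arrays, so p-values measure only the spread between these arrays. All cells came from 1 line.

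Progress into mitosis depends on CDK1, a kinase that is active only when bound to cyclin A or cyclin B and freed of inhibitory phosphates. Polo-like and Aurora kinases then build the spindle, kinetochores attach chromosomes to it, and the anaphase-promoting complex ends mitosis by marking cyclin B and securin for breakdown. Most of these genes are transcribed late in the cycle from promoters with a CCAAT box, which binds NF-Y, and a cell cycle genes homology region (CHR), which binds MuvB complexes. In a culture such as this their RNA is read as a sign of how many cells are cycling, and in bulk RNA fewer cells in G2 or mitosis and less RNA per such cell cannot be told apart.

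No member passed the threshold after LPS. In limma, 0 of 34 had an adjusted p under 0.05 over all genes tested, in a comparison where 5 genes were called higher and 5 lower, 0.0308% each. At an unadjusted p under 0.05, 13 members (38.2%) were lower and 1 was higher, against 9.63% of all genes lower and 4.68% higher. Differences were small, from -0.33 to 0.18 (log2, LPS minus untreated), with a median of -0.07 over the members and -0.0047 over all genes tested. They were below 0 for 24 members (70.6%) and for 51.8% of all genes. The largest in size, for NDC80, was a level 1.26-fold lower in LPS-treated cells. Both LPS arrays lay below both untreated arrays for 17 members (50%) and above them for 5 (14.7%), against 25.7% and 19.7% of all genes. The other 12 members overlapped.

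Part of that lower position was shared with other genes of the same level. The members lay at mean log2 levels of 8.79 to 13.03, and 28 of them were above the 90 percentile of all probe sets. Over all genes tested, divided into 10 equal bins by level, the median difference was 0.03 in the faintest bin and -0.05, -0.05 and -0.03 in bins 8, 9 and 10, which hold 5, 9 and 17 members. For the 400 genes nearest to each member in level, with the members and the wider list of mitotic genes below left out, the median difference was between -0.07 and -0.0017. After it was subtracted, the median over the members was -0.0265, with 23 members below 0 and 11 above. With 1 array left out this median was further from 0 each time. It was -0.0523 without untreated replicate 2 and -0.0439 without untreated replicate 1. Without LPS replicate 1 it was -0.0451, and without LPS replicate 2 -0.0336. Among such nearest genes, 15.6% were lower at an unadjusted p under 0.05 and 37.8% had both LPS arrays below both untreated arrays, against 38.2% and 50% of the members. By other measures such genes were near the members: 65.1% of them lay below 0, against 70.6% of the members, and 14.4% were above on both LPS arrays, against 14.7%. These shares are descriptions and were not tested.

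**Figure D1:**
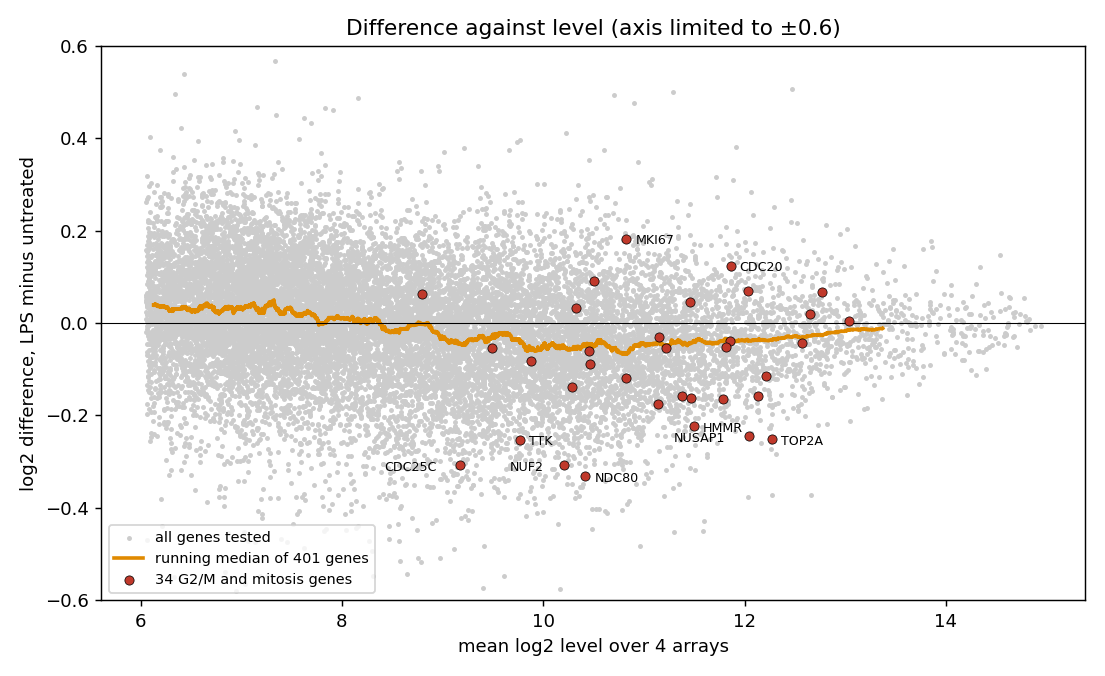
Log2 difference, LPS minus untreated (vertical axis, limited to ±0.6), against mean log2 level over the 4 arrays (horizontal axis), for all genes tested (grey) and the 34 G2/M and mitosis genes (red). The orange line is a running median over other genes. It lies above 0 at low levels and below 0 between levels of about 9 and 13, where nearly all members are found.

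The promoters of these genes were searched for CHR and CCAAT motifs because these are the elements the group is known for. RefSeq promoter windows (GRCh38.p14), 250 bases before to 50 after the start, matched 29 of the 34 members by symbol. The CHR letters were TTTGAA or TTCGAA and the CCAAT box CCAAT, each on both strands, with overlaps allowed. Between 100 bases before and 25 after a start, a CHR motif was found in 18 of the 29 members (62.1%) and in 6.08% of the 12834 tested genes with a window. A CCAAT box in that stretch was found in 21 members (72.4%) and in 26.6% of those genes. Both were present in 13 members (44.8%) and in 1.59% of those genes. A gene with several windows was counted once, if any of them held the motif. Of the members lower on both LPS arrays, 11 of 15 with a window had the CHR motif in the stretch, against 7 of 14 other members, so the motif was present in both. All 3 members with a window that were higher on both LPS arrays had it as well, and a match is a description of letters, not a bound site.

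The first 5 sequences belong to the lower members with the smallest p that hold a CHR motif in this stretch, and the last 3 to the members higher on both LPS arrays. All were chosen for a CHR motif, so its presence on both sides of 0 follows from that choice. A CCAAT motif is absent from the stretches of NUF2 and NDC80 and present in the others. Each runs 5′ to 3′ on the gene's strand, from 100 bases before to 25 after the start (GRCh38.p14), with CHR and CCAAT motifs of either strand in capitals.
NUSAP1 (chr15:41332781-41332905, + strand): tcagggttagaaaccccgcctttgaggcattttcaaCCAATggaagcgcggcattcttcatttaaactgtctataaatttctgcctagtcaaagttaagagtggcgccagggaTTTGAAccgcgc
NUF2 (chr1:163321854-163321978, + strand): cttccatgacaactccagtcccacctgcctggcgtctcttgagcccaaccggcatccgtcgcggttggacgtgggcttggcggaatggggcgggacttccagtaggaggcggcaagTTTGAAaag
HMMR (chr5:163460532-163460656, + strand): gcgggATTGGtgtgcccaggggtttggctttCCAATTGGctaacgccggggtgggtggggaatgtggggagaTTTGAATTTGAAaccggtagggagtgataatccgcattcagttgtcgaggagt
CDC25C (chr5:138331780-138331904, - strand): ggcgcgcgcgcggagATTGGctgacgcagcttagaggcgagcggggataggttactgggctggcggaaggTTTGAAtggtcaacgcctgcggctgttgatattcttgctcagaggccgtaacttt
NDC80 (chr18:2571457-2571581, + strand): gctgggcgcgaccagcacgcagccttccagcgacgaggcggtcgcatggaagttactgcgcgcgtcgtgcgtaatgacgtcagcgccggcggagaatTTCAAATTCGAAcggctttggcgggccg
MKI67 (chr10:128126399-128126523, - strand): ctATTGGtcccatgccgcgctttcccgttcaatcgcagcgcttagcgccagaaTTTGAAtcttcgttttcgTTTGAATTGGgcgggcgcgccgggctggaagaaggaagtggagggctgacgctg
CDC20 (chr1:43358881-43359005, + strand): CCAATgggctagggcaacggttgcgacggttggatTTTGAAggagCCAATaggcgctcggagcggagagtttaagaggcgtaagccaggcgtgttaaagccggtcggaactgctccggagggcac
PLK1 (chr16:23678789-23678913, + strand): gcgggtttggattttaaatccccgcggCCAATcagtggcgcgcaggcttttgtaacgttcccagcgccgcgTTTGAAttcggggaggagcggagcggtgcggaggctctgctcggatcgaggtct
In HMMR and NDC80 2 CHR motifs adjoin, in HMMR 2 CCAAT motifs of opposite strands share bases, and in MKI67 a CHR motif shares bases with a CCAAT motif of the opposite strand.

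Among the cyclins and the control of CDK1, 4 of 5 members were lower at an unadjusted p under 0.05, against 9.63% of all genes and 16.1% of genes of the same level. The median difference of the group was -0.16. CDC25C, the phosphatase that removes inhibitory phosphates from CDK1, had log2 levels of 8.99 and 9.05 on the LPS arrays, against 9.37 and 9.28 on the untreated arrays. The groups did not overlap, and the difference was -0.31 (95% interval -0.48 to -0.14, limma adjusted p = 0.160). CCNA2, which encodes cyclin A2, lay at 11.71 and 11.69 on the LPS arrays, against 11.90 and 11.84 on the untreated arrays (difference -0.16, interval -0.28 to -0.05, limma adjusted p = 0.232). Its second probe set went the other way, by 0.17.

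CCNB2, which encodes cyclin B2, lay at 11.31 and 11.29 on the LPS arrays, against 11.50 and 11.41 on the untreated arrays (difference -0.16, interval -0.29 to -0.03, limma adjusted p = 0.286). CDK1 itself was at 12.18 and 12.14 on the LPS arrays, against 12.28 and 12.26 on the untreated arrays, a difference of -0.11 (interval -0.22 to -0.0091, limma adjusted p = 0.324). On these probe sets both genes were lower on each LPS array than on either untreated array. All 4 CDK1 probe sets differed downward, from -0.12 to -0.06, but all except the chosen one overlapped between the groups. CCNB1, the cyclin B1 gene, had 12.56 and 12.53 on the LPS arrays, against 12.63 and 12.54 on the untreated arrays. Its groups overlapped, with a difference of -0.04 (interval -0.15 to 0.06), and without untreated replicate 1 the difference was 0.0013. Its second probe set did not overlap, with 11.67 and 11.65 on the LPS arrays, against 11.74 and 11.75 on the untreated arrays (difference -0.09).

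The mitotic kinases did not share a direction. AURKA, the Aurora kinase of the spindle poles, lay at 12.05 on both LPS arrays, against 12.26 and 12.16 on the untreated arrays. It was the 1 member of this group at an unadjusted p under 0.05, with a difference of -0.16 (interval -0.28 to -0.04, limma adjusted p = 0.238). Its other probe sets above the filter differed by -0.06 and -0.05, the first of them nearly as bright. PLK1, the Polo-like kinase that acts from mitotic entry to cytokinesis, had 10.50 and 10.60 on the LPS arrays, against 10.49 and 10.43 on the untreated arrays. Both LPS arrays were above both untreated arrays by a narrow margin, and the difference was 0.09 (interval -0.06 to 0.24, limma adjusted p = 0.582). It was 0.04 without LPS replicate 2, 0.06 without untreated replicate 2 and 0.14 without LPS replicate 1.

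AURKB, the Aurora kinase of the chromosomal passenger complex, differed by 0.03, and BIRC5, which encodes the survivin subunit of that complex, by -0.03. PLK4, the kinase of centriole duplication, differed by -0.06. All 3 overlapped between the groups.

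The spindle checkpoint kinases hold back anaphase until every kinetochore is attached, and all 3 lay lower on both LPS arrays, as did 25.7% of all genes and 39.6% of genes of the same level. TTK, also named MPS1, had 9.67 and 9.62 on the LPS arrays, against 9.91 and 9.89 on the untreated arrays, a gap wider than the spread within either pair. The difference was -0.25 (interval -0.41 to -0.10, limma adjusted p = 0.189). BUB1B, which encodes the checkpoint protein BUBR1, lay at 11.38 on both LPS arrays, against 11.63 and 11.46 on the untreated arrays (difference -0.16, interval -0.31 to -0.01, limma adjusted p = 0.327). Without untreated replicate 1 the difference was -0.08, and without untreated replicate 2 it was -0.25. BUB1, the kinase that recruits further checkpoint proteins to kinetochores, differed by -0.14 (interval -0.29 to 0.0078), with -0.03 and 0.0037 on its other probe sets above the filter.

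At the kinetochore, 4 of 5 members were lower on both LPS arrays, as were 25.7% of all genes and 35.1% of genes of the same level. NDC80 and NUF2 encode partner subunits of the complex that binds spindle microtubules. NDC80 had 10.31 and 10.19 on the LPS arrays, against 10.68 and 10.49 on the untreated arrays (difference -0.33, interval -0.52 to -0.15, limma adjusted p = 0.164). NUF2 had 10.12 and 9.98 on the LPS arrays, against 10.38 and 10.34 on the untreated arrays (difference -0.31, interval -0.47 to -0.14, limma adjusted p = 0.160). Neither overlapped between the groups, and each is measured by 1 probe set.

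CENPF, a large protein of the outer kinetochore, lay at 11.06 and 11.05 on the LPS arrays, against 11.31 and 11.15 on the untreated arrays (difference -0.17, interval -0.33 to -0.02, limma adjusted p = 0.304), and the difference was -0.10 without untreated replicate 1. Its other 2 probe sets also differed downward, by -0.24 and -0.09. The kinetochore motor CENPE differed by -0.08. CENPA, the histone H3 variant that marks centromeres, differed by 0.06 on a probe set of the _x_at type, which can bind transcripts of more than 1 gene, and its groups overlapped.

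**Figure D2:**
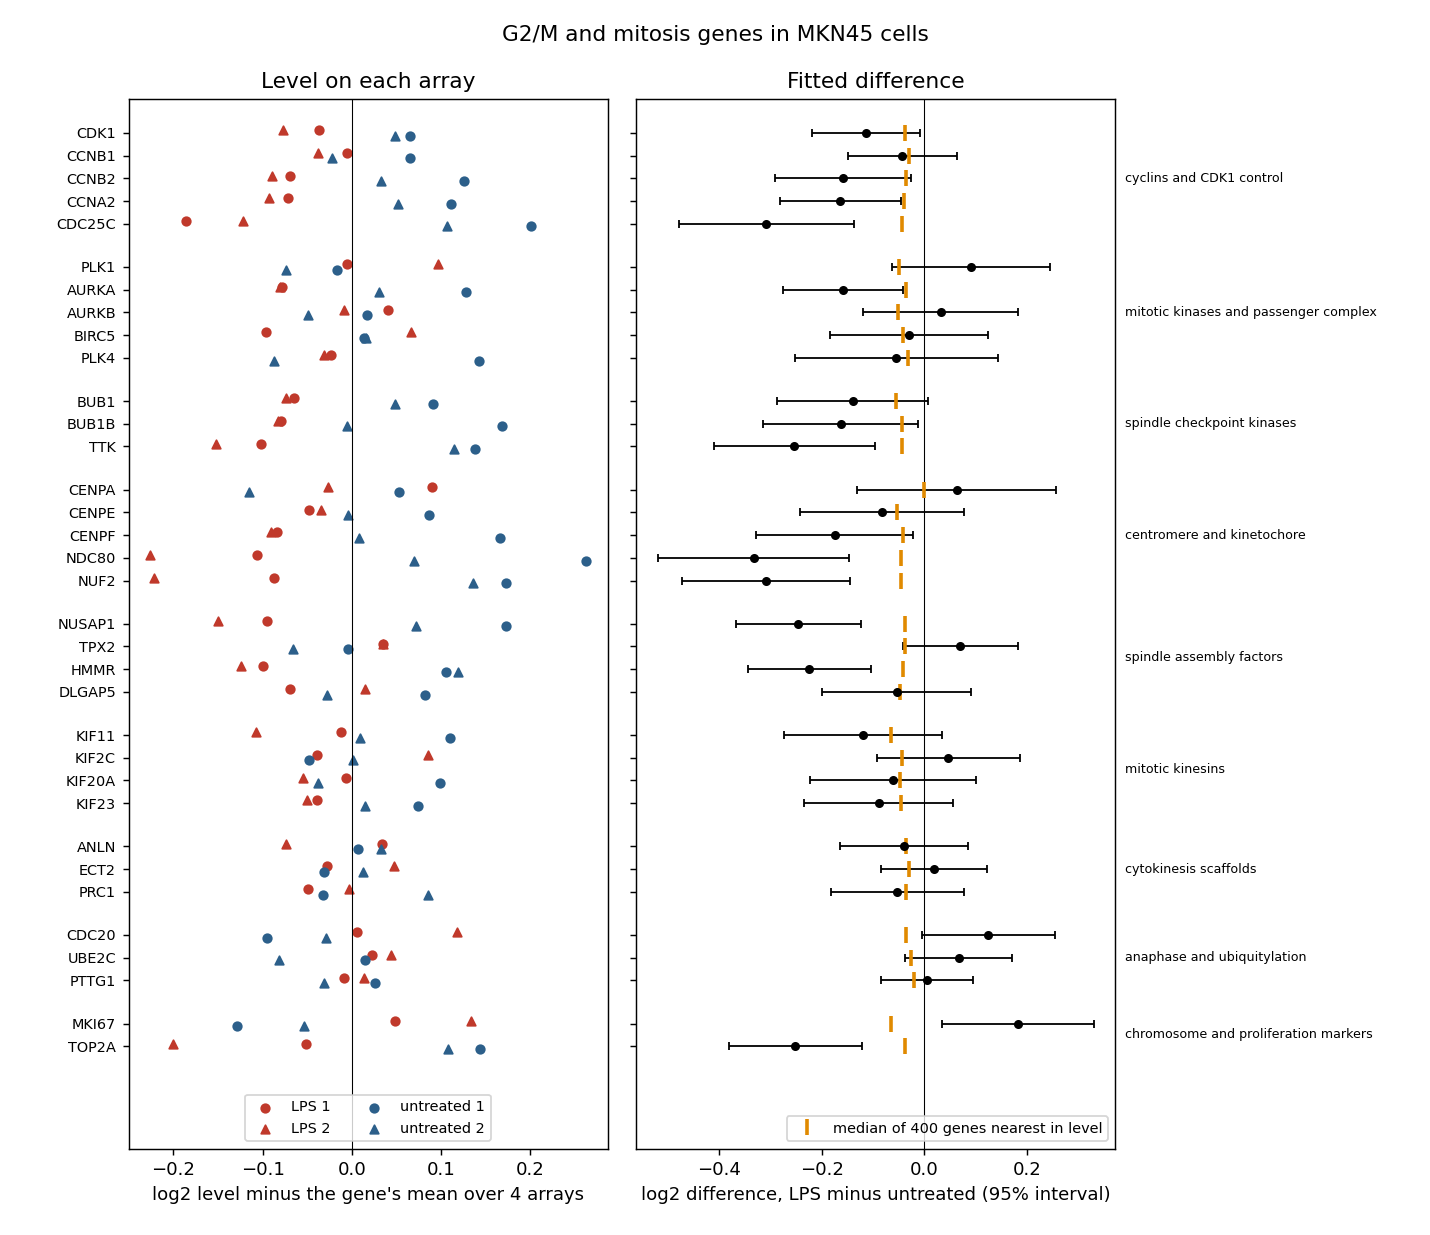
The left panel gives the log2 level of each gene on the LPS arrays (red) and untreated arrays (blue), circles for replicate 1 and triangles for replicate 2, minus that gene's mean over the 4 arrays. The right panel gives the fitted log2 difference, LPS minus untreated, with its 95% interval, and orange marks show the median difference of the 400 genes nearest in level. Cyclin, checkpoint and kinetochore genes lie mostly left of 0, whereas CDC20, UBE2C, TPX2, PLK1 and MKI67 have both LPS arrays above both untreated arrays.

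Spindle assembly factors were split. NUSAP1, a microtubule-bundling protein, had the smallest p of the members, with 11.95 and 11.90 on the LPS arrays, against 12.22 and 12.12 on the untreated arrays. The difference was -0.25 (interval -0.37 to -0.12, limma adjusted p = 0.139), and its second probe set differed by -0.38. HMMR, a hyaluronan receptor that also binds the spindle, lay at 11.40 and 11.37 on the LPS arrays, against 11.60 and 11.61 on the untreated arrays (difference -0.22, interval -0.34 to -0.10, limma adjusted p = 0.160), with -0.15 on its second probe set. On the chosen probe sets both genes were lower on every LPS array, but the second HMMR probe set overlapped between the groups. TPX2, the activator of Aurora A on spindle microtubules, was higher on both LPS arrays (12.07 on each, against 12.03 and 11.97 on the untreated arrays), with a difference of 0.07. DLGAP5, a further microtubule-binding protein, differed by -0.05 and overlapped.

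Among the motors and scaffolds that shape the spindle and divide the cell, 0 of 7 reached an unadjusted p under 0.05. Of all genes, 9.63% were lower and 4.68% higher at that p. Of genes of the same level, 17.3% were lower for the kinesins and 14.8% for the scaffolds. KIF11, which pushes spindle poles apart, had the smallest p of the kinesins, with 10.81 and 10.72 on the LPS arrays, against 10.94 and 10.83 on the untreated arrays (difference -0.12, interval -0.27 to 0.03, limma adjusted p = 0.453). The LPS arrays lay below the untreated ones by a narrow margin, and the difference was -0.07 without LPS replicate 2 or without untreated replicate 1. KIF23, a kinesin of the central spindle, differed by -0.09, and KIF20A, another cytokinesis kinesin, by -0.06. The microtubule depolymerase KIF2C differed by 0.05. PRC1, which bundles microtubules of the central spindle, had 11.77 and 11.81 on the LPS arrays, against 11.78 and 11.90 on the untreated arrays, and its groups overlapped (difference -0.05, interval -0.18 to 0.08, limma adjusted p = 0.721). The actin-binding scaffold ANLN differed by -0.04 and ECT2, which activates RhoA at the division plane, by 0.02.

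The anaphase and ubiquitylation genes were not lower. CDC20, which activates the anaphase-promoting complex, lay at 11.87 and 11.98 on the LPS arrays, against 11.77 and 11.83 on the untreated arrays (difference 0.12, interval -0.0058 to 0.25, limma adjusted p = 0.368), and the difference was 0.07 without LPS replicate 2. UBE2C, the ubiquitin-conjugating enzyme of that complex, was at 12.79 and 12.81 on the LPS arrays, against 12.78 and 12.69 on the untreated arrays (difference 0.07, interval -0.04 to 0.17). Both genes were higher on each LPS array than on either untreated array, UBE2C by a narrow margin. Of all genes 19.7%, and of genes of the same level 15.2%, were higher in that way. PTTG1, which encodes securin, differed by 0.0048 and overlapped, and by -0.0094 after median centring. It was measured by 1 probe set, of the _x_at type.

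The chromosome and proliferation markers lay on opposite sides. MKI67, which encodes the Ki-67 antigen that coats mitotic chromosomes, was the only member higher at an unadjusted p under 0.05. It had 10.87 and 10.96 on the LPS arrays, against 10.70 and 10.77 on the untreated arrays (difference 0.18, interval 0.03 to 0.33, limma adjusted p = 0.274). All 4 of its probe sets were higher, by 0.02 to 0.25. TOP2A, the topoisomerase that untangles chromosomes, had 12.22 and 12.07 on the LPS arrays, against 12.41 and 12.38 on the untreated arrays (difference -0.25, interval -0.38 to -0.12, limma adjusted p = 0.149). Its second probe set, also well above the filter, read 12.037 and 12.043 on the LPS arrays, against 12.004 and 11.989 on the untreated arrays, a difference of 0.04 in the other direction.

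Other probe sets of the members gave a mixed check on these values. The 34 genes had 69 probe sets, 64 of them above the level filter. Of the 30 that were not the chosen one, 19 were lower and 11 higher with LPS, with a median of -0.06, and 23 of them had the direction of the chosen probe set. Of 19 members with more than 1 probe set above the filter, 12 had a single direction. Those with the widest disagreement were CCNA2, TOP2A, CDC25C (-0.31 and -0.32, against 0.03), AURKB (0.03 against -0.26) and BIRC5 (-0.36 to 0.03). The probe sets at 0.03 for CDC25C, -0.26 for AURKB and -0.36 for BIRC5 were dim, at mean levels of 6.65, 7.68 and 8.10. The chosen ones were at 9.17, 10.32 and 11.15. For CCNA2 and TOP2A the probe sets of opposite direction were bright, at 10.55 and 12.02.

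**Figure D3:**
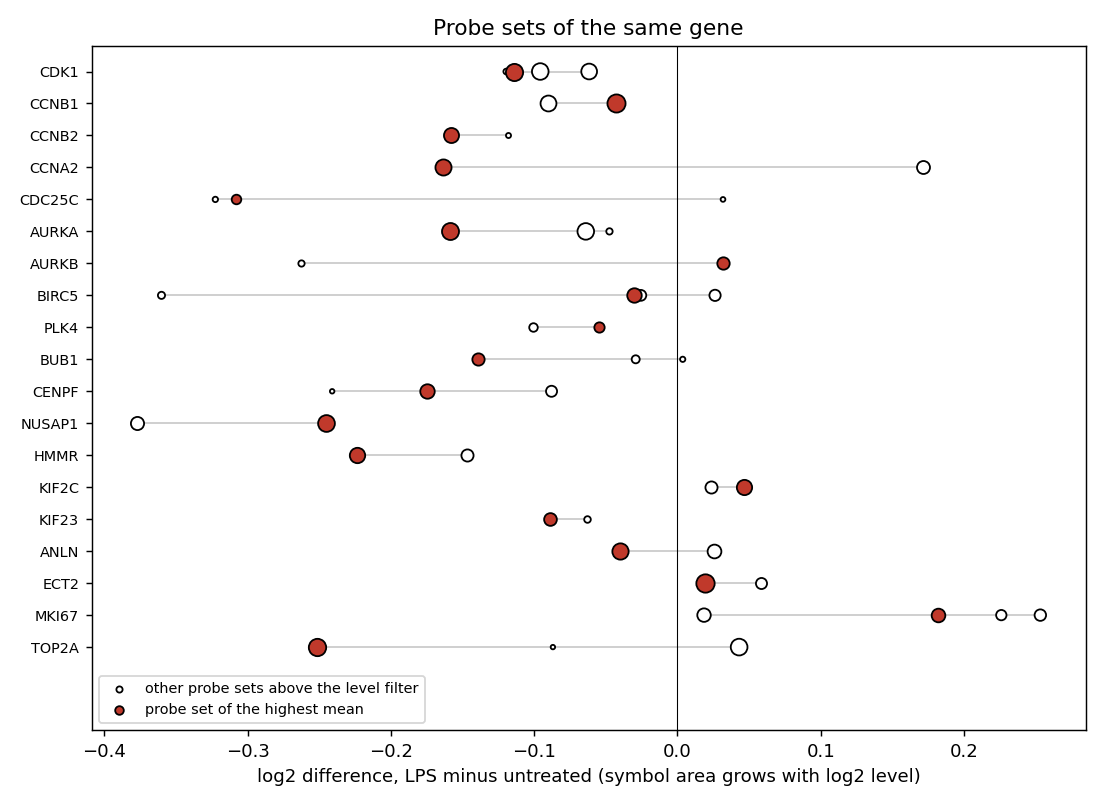
Log2 difference, LPS minus untreated, of every probe set above the level filter, for the 19 members with more than 1. Red marks the probe set of the highest mean, used in the tests, and white the others, with area growing with log2 level. NUSAP1, HMMR, CDK1 and CENPF stay left of 0 and MKI67 right of it, whereas CCNA2, CDC25C and TOP2A cross it.

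Scaling of the arrays moved the whole group. After quantile normalization the median difference was -0.02 over the members and 0.01 over all genes, and after cyclic loess -0.02 and 0.01. At an unadjusted p under 0.05 the split was 10 lower and 4 higher after quantile normalization and 9 and 4 after cyclic loess, against 13 and 1 as deposited. Of all genes, 7.12% and 7.49% were lower at that p, and the share higher was not taken for these scalings. All genes moved too: 45.0% and 46.2% of them lay below 0, against 51.8% as deposited. Of the members, 22 lay below 0 under each, against 24 as deposited. BIRC5 (0.01 under each) and ANLN (0.0021 and 0.00082) turned to the other side of 0 under both of these. The numbers below on both LPS arrays were 17 and 16, against 20.9% and 21.7% of all genes. The count of 13 also fell to 7 without LPS replicate 1 and to 6 without LPS replicate 2 (5.02% and 3.73% of all genes lower), and the median was -0.12 without untreated replicate 2.

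**Figure D4:**
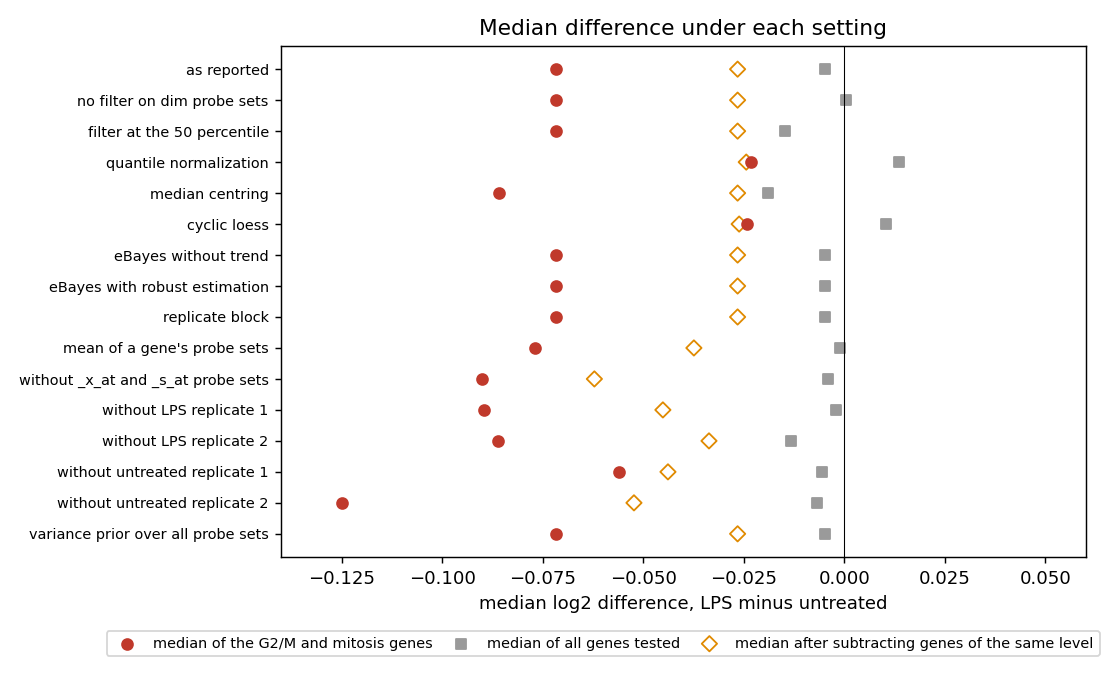
Median log2 difference, LPS minus untreated, under each setting (rows): red circles for the 34 G2/M and mitosis genes, grey squares for all genes tested, orange diamonds for the members after subtracting genes of the same level. Red circles range from -0.12 to -0.02 and diamonds from -0.06 to -0.02.

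A wider list of 112 genes of the same machinery was described in the same way, and 109 of them were measured above the filter. In limma 0 passed. Without adjustment, 16 (14.7%) had p under 0.05 and were lower, and 4 (3.67%) were higher, the shares of all genes being 9.63% and 4.68%. The share lower was close to the 14.97% among genes of the same level. The median difference was -0.06, and -0.03 after subtracting that of genes of the same level. Both LPS arrays lay below both untreated arrays for 44 of these genes (40.4%) and above for 17 (15.6%), against 25.7% and 19.7% of all genes. Among genes of the same level the shares were 35.8% and 15.1%, close to those of the list. Quantile normalization gave a median of -0.0174 and cyclic loess -0.0215, and it was -0.03 without untreated replicate 1 and -0.10 without untreated replicate 2.

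Regulators of G2/M transcription lay on both sides of 0. RBL2, which encodes the pocket protein p130 of the repressive DREAM complex, had 10.26 and 10.34 on the LPS arrays, against 10.57 and 10.50 on the untreated arrays (difference -0.24, limma adjusted p = 0.201), and its second probe set also differed by -0.24. LIN37, a MuvB subunit, differed by -0.23 (limma adjusted p = 0.292). The activators MYBL2 and FOXM1, which bind these promoters in G2, differed by 0.17 and 0.14 at unadjusted p-values above 0.05, and were named after their values were seen. FOXM1, measured by 1 probe set of the _x_at type, overlapped between the groups. E2F4, named likewise, differed by 0.18 without overlap, also at an unadjusted p above 0.05. Of the 15 regulators, 8 (53.3%) were below on both LPS arrays and 2 (13.3%) above. Of all genes the shares were 25.7% and 19.7%, and of genes of the same level 33.3% and 16.5%.

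CDKN1A, which encodes the cyclin-dependent kinase inhibitor p21, had 11.138 and 11.306 on the LPS arrays, against 10.848 and 10.998 on the untreated arrays, with no overlap (difference 0.30, interval 0.12 to 0.47, limma adjusted p = 0.178). The kinases that put inhibitory phosphates on CDK1 differed in opposite directions, WEE1 by -0.15 (0.13 on its second probe set) and PKMYT1 by 0.17. PKMYT1 was measured by 1 probe set, of the _x_at type. UBE2S, the enzyme that extends ubiquitin chains after UBE2C, had the smallest p of the wider list, with 12.02 and 12.05 on the LPS arrays, against 11.73 and 11.73 on the untreated arrays (difference 0.31, interval 0.20 to 0.42, limma adjusted p = 0.0811). Its gap between the groups was far wider than the spread within either pair.

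Other kinetochore genes included 5 of 27 at an unadjusted p under 0.05 (18.5%), all of them lower, against 9.63% of all genes and 14.4% of genes of the same level. SKA2, of the complex that couples kinetochores to microtubule ends, differed by -0.18, NSL1, a subunit of the MIS12 complex, by -0.19, and CENPU, of the inner kinetochore, by -0.18, each on a probe set with no overlap between the groups (limma adjusted p = 0.247, 0.260 and 0.278, in that order). Other spindle and cytokinesis genes included 8 of 27 with an unadjusted p under 0.05, of which 7 were lower (25.9% of the group) and 1 higher, where 9.63% of all genes and 15.7% of genes of the same level were lower. NEK2, a centrosomal kinase, differed by -0.23, STIL, a centriole assembly protein, by -0.22, and ASPM, a spindle pole protein, by -0.26 (-0.85 on the lowest of its 3 probe sets). SMC4, a condensin subunit, differed by -0.13 and was 1 of 13 genes of the condensin and passenger group at an unadjusted p under 0.05. That share of 7.69% lower was under the 9.63% of all genes and the 14.5% of genes of the same level. Both LPS arrays lay above both untreated arrays for 4 of the 13 (30.8%) and below for 2 (15.4%), against 19.7% and 25.7% of all genes.

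The arrays themselves differed in ways that ran with the groups. The control transcripts with poly-A tails that are mixed in ahead of labelling averaged 7.98 and 7.92 on the LPS arrays, against 8.60 and 8.25 on the untreated arrays. For actin, the 3′ minus the 5′ control probe set was 0.39 and 0.63 on the LPS arrays, against 0.64 and 0.86 on the untreated arrays, whereas for GAPDH the values overlapped. Epithelial markers, all 8 measured (EPCAM, KRT8, KRT18, KRT19, CDH1, VIL1, CLDN4 and MET), averaged 13.06 on both LPS arrays, against 13.03 and 13.07 on the untreated arrays. The 3 leukocyte markers above the filter of 6 listed averaged 7.56 and 7.72 on the LPS arrays, against 7.54 and 7.52 on the untreated arrays. They did not move together: CD53 differed by 0.33, CSF1R by 0.01 and CD3E by -0.00047. PTPRC and CD14 lay under the filter. The 5 fibroblast markers averaged 7.39 and 7.41 on the LPS arrays, against 7.33 and 7.35 on the untreated arrays. Their directions were mixed: DCN differed by 0.20, PDGFRB by 0.18 and COL1A1 by 0.09, but COL3A1 and LUM by -0.08 each. The part of these values in the differences above was not tested.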

How the data were processed

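Values were the deposited log2 levels of 54675 Affymetrix probe sets on 4 arrays. MAS5 and RMA are named in the submitters' processing notes, and which of them made the values, with its version, is not given in the sources used here. RNA was biotin-labelled, per the labels' protocols. No further normalization was applied. Array medians lay between 7.00 and 7.03.

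After 62 control probe sets were left out, probe sets with a mean under the 30 percentile (6.06) were removed. Symbols came from the platform annotation, with probe sets of several symbols left unnamed. Each gene was represented by its probe set of highest mean (16252 genes). The comparison of both groups used limma 3.58.1 under R 4.3.3 (lmFit, eBayes with trend, 9.19 degrees of freedom, no replicate block, two-sided, Benjamini-Hochberg over all genes tested). The fit was tested on simulated data. It called 34.9% of genes given a 1.25-fold change, 95.6% of those given 1.5-fold and 0.0519% of unchanged genes. Planted changes ranged up to 4-fold, and many more genes were called there than the 10 called in these data. With more genes called the adjusted threshold is easier to pass, so these recoveries may be too high for the real comparison. The largest difference of a member was 1.26-fold, so most changes of the size seen here would be missed. The number of arrays limits the precision. Alternatives were other filters, scalings, variance models, probe set choices, the replicate block and leaving out each array.

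Members and lists were chosen with earlier results of these data known. Within each of 9 role groups, members at an unadjusted p under 0.05 were given in full, or else the 1 with the smallest p. CDK1, CCNB1, PLK1, MKI67 and TOP2A were always given. Up to 3 genes at that p, or else the 1 with the smallest p, were named in each of the 6 groups of the wider list. 1 of the leukocyte markers listed is not reported here.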

Additional observations from a re-analysis of the deposited data

How the results depend on the processing

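The count of members past the limma threshold was 0 as deposited and under every alternative run except the replicate block, which called 3 (NDC80, NUSAP1 and TOP2A, each lower, at adjusted p = 0.0425, 0.0430 and 0.0425) among 165 genes, against 10 without it. The labels do not say that a replicate number marks a shared experiment. Deviations of same-numbered arrays correlated across genes at r = 0.103 over all genes and 0.391 over the members, which with 2 pairs does not settle a pairing. Over all genes, median centring called 99, cyclic loess 38, quantile normalization 26, robust estimation 18, and a variance prior over all probe sets, chosen after seeing the data, 4. An adjusted p under 0.1 called 0 members.

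The 13 members lower at an unadjusted p under 0.05 became 8 without the intensity trend, 8 with probe sets averaged per gene and 6 to 15 with 1 array left out, where 8.46%, 8.34% and 3.73% to 15.5% of all genes were lower, against 9.63% as deposited. The members' median (-0.07) was -0.0232 after quantile normalization, -0.0241 after cyclic loess, -0.0860 after median centring and -0.125 to -0.0561 with 1 array left out. With genes of the same level subtracted (-0.0265) it was -0.0622 without _x_at and _s_at probe sets, which left 27 members, and -0.0523 to -0.0336 with 1 array left out. The wider list's median was -0.0174 after quantile normalization, -0.0215 after cyclic loess, -0.0463 with probe sets averaged, -0.0895 without _x_at and _s_at probe sets and -0.104 to -0.0297 with 1 array left out. Of 19 members given in full, CCNA2 turned to 0.0036 with the mean of its probe sets, and CDC25C to 0.0318 and TOP2A to 0.0431 without _x_at and _s_at probe sets. The CDC25C probe set left there was dim, at a mean level of 6.65. With 1 array left out, CCNB1 ranged from -0.0867 to 0.0013 and PRC1 from -0.11 to 0.0061, and the lone array of a group was assumed to vary like the other group.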
